A study of Mus musculus with 8 samples.

Results

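Pericytes and vascular smooth muscle cells, together called mural cells, wrap the endothelial tube of small and large vessels. Smooth muscle cells contract through an actin and myosin apparatus, whose genes are switched on by serum response factor (SRF) bound to CArG boxes in their promoters. Pericytes carry less of this apparatus and are recognised by receptors and surface proteins such as Notch3 and the proteoglycan NG2. In white adipose tissue the vessel wall lies close to adipose precursors (APs), and some of these markers are also made by fibroblast-like cells that are not mural.

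The levels of 10 such markers were followed in APs: Acta2, Myl9, Tagln, Myh11 and Cnn1 of the contractile apparatus, the filament gene Des, the signalling genes Rgs5 and Notch3, and the surface proteins Cspg4 and Mcam. Each was read from the probe set whose annotation gives its symbol alone. The markers, and the gene lists read further below, were chosen with earlier results of these data known. All 10 were found, each with 1 such probe set, among 19938 genes measured in this way.

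RNA came from HFD viAPs, SD viAPs, HFD scAPs and SD scAPs, with 2 Affymetrix Mouse Gene 1.0 ST arrays in each of the 4 groups and 8 in all. HFD is a high-fat diet given for 3 days and SD the standard diet, and viAPs and scAPs are the APs of perigonadal visceral and of subcutaneous fat. All mice were male C57BL/6J aged 7 to 8 weeks, with no transgene, and 3 mice were pooled for each array. Cells carrying CD45 or CD31 had been depleted with beads and cells carrying SCA-1 retained, so that every group was a bead-selected fraction and not a mural cell preparation. Values are log2 of the deposited array intensity, so that a difference of 1 is 2-fold. In such bulk samples, fewer cells of a type and less RNA per cell cannot be told apart.

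The label check left 1 array in doubt. Pdgfra, the receptor that marks APs, was at 11.01 to 11.56 on all 8 arrays. Tbx15, a transcription factor of subcutaneous fat, was at 3.91 and 4.09 in HFD viAPs and 4.70 on SD viAP replicate 3, but at 9.77 on the array labelled SD viAP replicate 4, next to 9.34 to 9.67 in the 4 scAP arrays. Wt1, a visceral marker, was at 8.94 and 9.09 in HFD viAPs, 8.71 on SD viAP replicate 3 and 5.98 on the array labelled SD viAP replicate 4. Over all probe sets with 1 symbol this array correlated more closely with SD scAP replicate 2 (Pearson r = 0.988, across genes, which are not independent) than with SD viAP replicate 3 (r = 0.980). Its label was kept, and the results that its removal changed most are given with and without it.

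**Figure D1:**
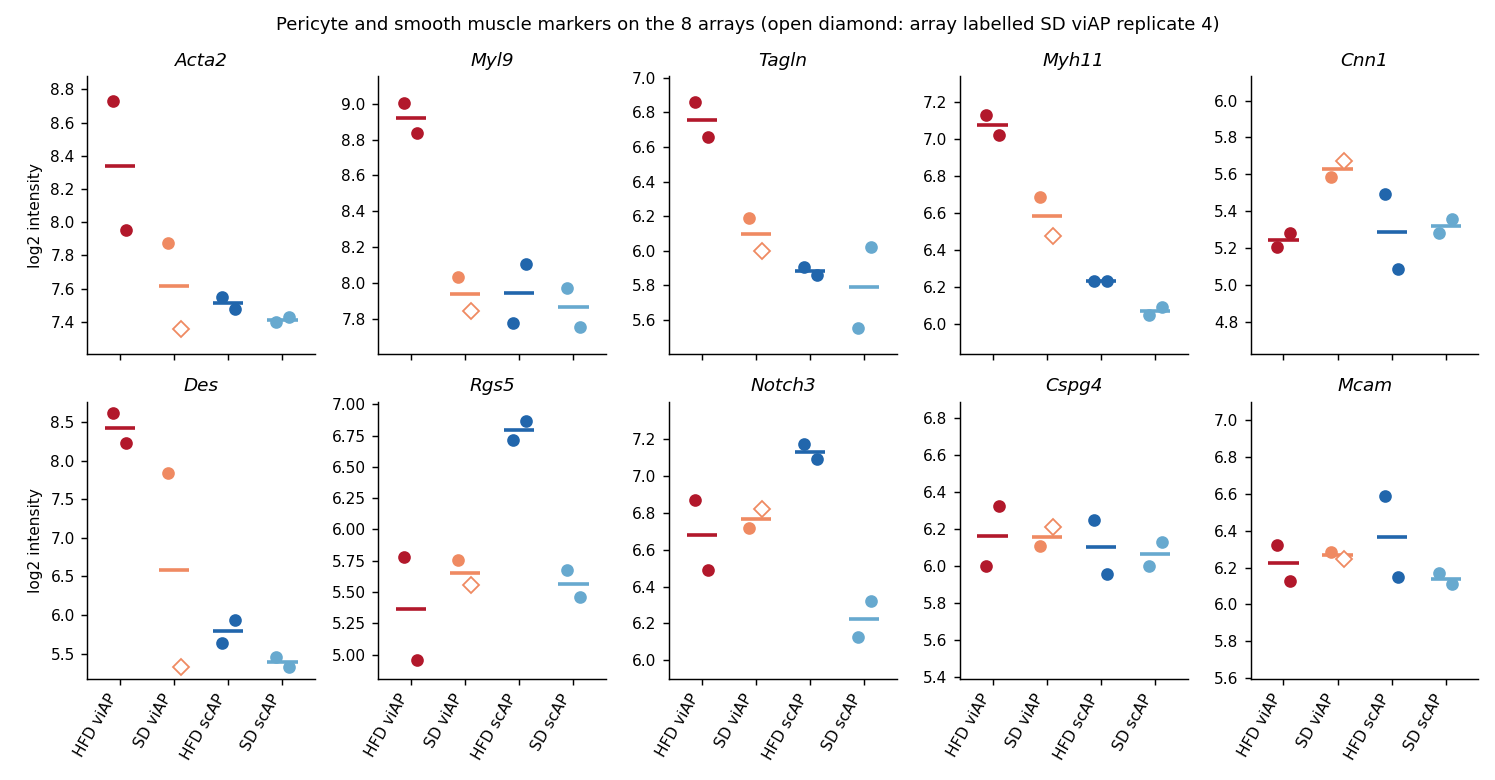
Log2 intensity of the 10 markers on the 8 arrays, by group (HFD viAP, SD viAP, HFD scAP, SD scAP); points are arrays, bars are means of 2 arrays, and the open diamond is the array labelled SD viAP replicate 4. Acta2, Myl9, Tagln, Myh11 and Des were highest in HFD viAPs, while Rgs5 and Notch3 were highest in HFD scAPs; each panel has its own vertical range.

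The markers spanned a range of levels on this platform. Acta2 and Myl9 exceeded a log2 level of 7 on 8 arrays each, Des on 3, and Myh11 and Notch3 on 2. Tagln, Cnn1, Rgs5, Cspg4 and Mcam exceeded it on 0 arrays. The study's methods state a filter on level (above 7 on at least 3 arrays) and on variability. Applied here, 3 of the 10 markers met its level part (Acta2, Myl9 and Des) and the same 3 passed the whole of it. Between arrays, Des varied most, over 3.29 on the log2 scale, and Rgs5 next, over 1.92. Cspg4 varied least, over 0.37. Myocd, the SRF cofactor that drives the smooth muscle programme, was at 4.25 to 4.52 on all 8 arrays. Srf itself was at 8.05 and 8.01 in HFD viAPs, 7.75 and 7.91 in SD viAPs, 7.87 and 7.77 in HFD scAPs and 7.75 and 7.62 in SD scAPs.

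Promoter windows of 300 bases, from 250 before to 50 after a transcript start, were found in RefSeq (build GRCm38.p6) for 8 of the 10 markers. They are not shown for Tagln and Myh11, which had no entry in the table used here. The windows were searched on both strands for the CArG box, the DNA element bound by SRF, and for the same element with at most 1 other base in its core. The windows of Acta2 and Myl9 are shown because they were the 2 that held a match, which is in capitals. They lie on the minus strand at chr19:34255324-34255623 and on the plus strand at chr2:156775214-156775513.
Acta2: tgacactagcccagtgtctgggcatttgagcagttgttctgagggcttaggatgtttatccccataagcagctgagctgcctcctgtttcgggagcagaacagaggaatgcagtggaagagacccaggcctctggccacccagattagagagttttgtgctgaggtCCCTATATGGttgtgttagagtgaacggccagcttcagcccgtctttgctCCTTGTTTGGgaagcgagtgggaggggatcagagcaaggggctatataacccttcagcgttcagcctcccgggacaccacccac
Myl9: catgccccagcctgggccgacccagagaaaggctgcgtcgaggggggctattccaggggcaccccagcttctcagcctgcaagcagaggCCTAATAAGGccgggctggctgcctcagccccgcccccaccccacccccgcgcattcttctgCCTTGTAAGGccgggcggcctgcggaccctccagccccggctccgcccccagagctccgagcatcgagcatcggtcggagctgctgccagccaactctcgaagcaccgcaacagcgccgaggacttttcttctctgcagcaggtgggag
The Myl9 window held a CArG box at base 90, counted from 1 at the first base shown, and a match with 1 other base at base 152. The Acta2 window held no exact CArG box and 2 matches with 1 other base, at bases 167 and 217. An exact CArG box stood in 1.63% of the 32851 windows of the table, and a box with at most 1 other base in 9.98%. The windows of Des and Rgs5, at chr1:75360042-75360341 and chr1:169655251-169655550 on the plus strand, are shown because these markers differed most between the fat depots on HFD.
Des: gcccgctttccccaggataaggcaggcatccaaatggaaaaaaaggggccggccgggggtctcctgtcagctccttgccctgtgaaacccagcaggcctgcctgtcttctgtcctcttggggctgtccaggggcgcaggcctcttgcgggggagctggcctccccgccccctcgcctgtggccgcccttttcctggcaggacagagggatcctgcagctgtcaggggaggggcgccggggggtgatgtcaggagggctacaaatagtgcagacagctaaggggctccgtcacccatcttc
Rgs5: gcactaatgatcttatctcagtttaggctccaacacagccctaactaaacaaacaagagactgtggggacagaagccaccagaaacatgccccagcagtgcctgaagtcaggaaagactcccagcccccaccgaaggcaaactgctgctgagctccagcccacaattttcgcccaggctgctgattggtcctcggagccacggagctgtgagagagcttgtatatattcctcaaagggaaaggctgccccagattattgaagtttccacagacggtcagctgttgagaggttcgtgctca
Neither held a match, nor did the windows of Cnn1, Notch3, Cspg4 and Mcam. TGGGAA, the core bound by RBPJ, the DNA-binding partner of Notch receptors, occurred at base 224 of the Acta2 window, where it overlaps the second CArG-like match, and in none of the other 7. It stood in 25.6% of all windows. These matches describe letters only.

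The first comparison asked how HFD changed the markers in viAPs. Of the 5 contractile markers, 3 rose in HFD viAPs. Myl9, Tagln and Myh11 rose by 0.98, 0.66 and 0.49 on the log2 scale (limma's moderated test, adjusted p = 0.0119, 0.0476 and 0.0463), and 0 of the 10 markers fell. These 3 of 10 stand beside 8.45% of all 21789 probe sets with 1 symbol that rose and 1.95% that fell in this comparison. None of the 3 changes reached 2-fold, so that 0 of 10 passed the rule of adjusted p under 0.05 with a change of at least 2-fold. The median change of the markers was 0.25, against -0.05 over all probe sets with 1 symbol and 0.30 over those above the authors' level.

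Myl9 encodes the regulatory light chain of smooth muscle and non-muscle myosin (gene at chr2:156775408-156781657). Its level was 9.003 and 8.836 in HFD viAPs, against 8.033 and 7.845 in SD viAPs. Both HFD arrays lay above both SD arrays, and the means of 8.92 ± 0.12 and 7.94 ± 0.13 (SD, n = 2 each) differed 1.97-fold (standard error 0.16 on the log2 scale). Myl9 in scAPs was at 7.77 and 8.11 on HFD, against 7.97 and 7.75 on SD, and those groups overlapped.

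Tagln encodes transgelin, an actin-binding protein that appears early in smooth muscle (chr9:45929628-45936058). It was at 6.86 and 6.66 in HFD viAPs, against 6.19 and 6.00 in SD viAPs. The change of 0.66 had a standard error of 0.18. Myh11 encodes the smooth muscle myosin heavy chain, the most specific of the contractile markers (chr16:14194527-14292188). It was at 7.13 and 7.02 in HFD viAPs, against 6.69 and 6.48 in SD viAPs, a change of 0.49 (standard error 0.13). For both genes the HFD arrays were above the SD arrays.

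Acta2 encodes smooth muscle alpha-actin, which is also made by activated fibroblasts (chr19:34240336-34255585). It was at 8.73 and 7.95 in HFD viAPs, against 7.88 and 7.36 in SD viAPs. The groups did not overlap, but the lower HFD array was close to the higher SD array, and the change of 0.72 (standard error 0.25) did not pass (adjusted p = 0.103). It passed narrowly over the 3076 probe sets of the authors' filter (adjusted p = 0.0450) and with median centring (adjusted p = 0.0475). Leaving out SD viAP replicate 4 gave a change of 0.46 (adjusted p = 0.410), and leaving out HFD viAP replicate 5 gave 0.34 (adjusted p = 0.542). Cnn1 encodes calponin, an actin-binding protein of differentiated smooth muscle (chr9:22099221-22109221). It went the other way, at 5.21 and 5.29 in HFD viAPs, against 5.58 and 5.67 in SD viAPs. Its change of -0.38 (standard error 0.15) did not pass either (adjusted p = 0.144), although both HFD arrays were below both SD arrays.

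Des encodes desmin, the intermediate filament of muscle and of many pericytes (chr1:75360292-75368579). It showed the largest fitted change of the 10 markers in viAPs, 1.84, with the largest standard error, 0.63 (adjusted p = 0.0979). Its levels were 8.61 and 8.22 in HFD viAPs, against 7.84 on SD viAP replicate 3 and 5.32 on the array labelled SD viAP replicate 4. The last value was at the level of SD scAPs, 5.46 and 5.32. Over the probe sets of the authors' filter Des passed (adjusted p = 0.0351). It met the level part only through HFD viAPs and SD viAP replicate 3, where it was high, and the filter also selects variable genes. That pass is therefore not independent support. Without the array labelled SD viAP replicate 4 the change of Des was 0.58, and without SD viAP replicate 3 it was 3.10.

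The 4 other markers overlapped between diets in viAPs. Rgs5 changed by -0.29, Notch3 by -0.09, Mcam by -0.04 and Cspg4 by 0.00, with adjusted p from 0.459 to 1.0. In all, both HFD arrays were above both SD arrays for 5 of the 10 markers, next to 28.9% of all probe sets, and below them for 1. With the array labelled SD viAP replicate 4 left out, 0 of the 10 markers passed in viAPs. The changes were then 0.89 for Myl9 (adjusted p = 0.0782), 0.57 for Tagln and 0.39 for Myh11, and the share of all probe sets that rose was 0.909%. That fit has 1 array in SD viAPs, which is assumed to vary like the other groups. None of the 3 passed either when only the 4 viAP arrays were fitted (adjusted p 0.0680 to 0.0992) or with HFD viAP replicate 5 or HFD viAP replicate 6 left out. Tagln also missed the threshold without SD viAP replicate 3 (adjusted p = 0.0830), and Tagln and Myh11 without either HFD scAP array (adjusted p = 0.0998 and 0.0836).

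**Figure D2:**
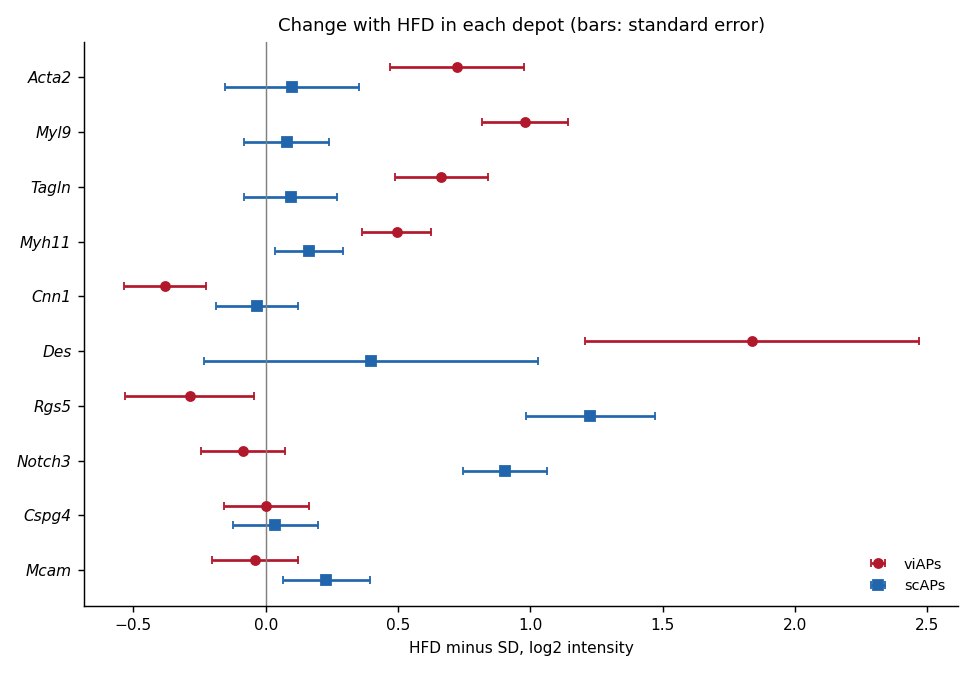
Change with HFD (HFD minus SD, log2 intensity) of each marker in viAPs and in scAPs; points are fitted changes over all 8 arrays and bars are standard errors. Myl9 changed by 0.98 in viAPs and 0.08 in scAPs, while Notch3 changed by -0.09 in viAPs and 0.90 in scAPs.

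The same question was asked in scAPs. Here Notch3 rose, and no contractile gene passed the test. Notch3, the receptor through which endothelial ligands keep mural cells differentiated (chr17:32120820-32166896), was at 7.17 and 7.09 in HFD scAPs, against 6.13 and 6.32 in SD scAPs. This is a 1.87-fold change (log2 0.90, standard error 0.16, adjusted p = 0.0412). It was 1 of 10 markers that rose and 0 fell, next to 1.06% of all probe sets that rose and 0.11% that fell. With any 1 of the 8 arrays left out, Notch3 no longer passed, with changes of 0.81 to 1.00 and adjusted p from 0.0675 to 0.294, nor did it pass when only the 4 scAP arrays were fitted (adjusted p = 0.263).

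Rgs5 encodes a regulator that shortens G protein signalling and is a widely used pericyte marker (chr1:169655501-169695813). It had the largest change in scAPs, at 6.71 and 6.87 in HFD scAPs against 5.67 and 5.46 in SD scAPs. The 2 HFD scAP arrays were above the other 6 arrays, of which the highest was at 5.78. The change was 2.34-fold (log2 1.23, standard error 0.24), and its adjusted p of 0.0551 lay just above the threshold. When each array was centred on its median, Rgs5 passed (change 1.33, adjusted p = 0.0259).

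The contractile markers showed small differences in scAPs. Acta2 was at 7.55 and 7.48 in HFD scAPs, against 7.40 and 7.43 in SD scAPs, a change of 0.10 (95% interval -0.48 to 0.68). The change of Myl9 was 0.08 (-0.29 to 0.45), of Tagln 0.09 (-0.31 to 0.49), of Myh11 0.16 (-0.13 to 0.46) and of Cnn1 -0.03 (-0.38 to 0.32). These intervals leave room for changes of up to 0.68, so that they do not show the levels to be equal. Des changed by 0.40 with an interval of -1.04 to 1.83. Both HFD arrays were above both SD arrays for 5 markers (Acta2, Myh11, Des, Rgs5 and Notch3), next to 21.7% of all probe sets, and below them for 0. The median change of the markers was 0.13, against 0.00 over all probe sets and 0.18 over those above the authors' level.

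Neither surface protein gene passed the test in any comparison. Cspg4 encodes NG2, a chondroitin sulphate proteoglycan of pericytes (chr9:56865104-56899870). It stayed between 5.95 and 6.32 on all 8 arrays, with changes of 0.00 in viAPs (95% interval -0.37 to 0.37) and 0.04 in scAPs (-0.33 to 0.40). Mcam encodes CD146, an adhesion molecule of pericytes and endothelium (chr9:44134658-44142727). It was at 6.58 and 6.15 in HFD scAPs, against 6.17 and 6.11 in SD scAPs, and these groups overlapped. The other 4 arrays held Mcam at 6.13 to 6.32.

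Averaged over both depots, HFD raised Myl9 by 0.53 (standard error 0.11, adjusted p = 0.0175), Notch3 by 0.41 (0.11, adjusted p = 0.0391) and Myh11 by 0.33 (0.09, adjusted p = 0.0413). These 3 of 10 stand beside 12.1% of all probe sets that rose and 4.96% that fell. This average uses the same arrays as the comparisons above. Tagln missed the threshold (0.38, adjusted p = 0.0688), as did Rgs5 (0.47, adjusted p = 0.0956). Leaving out the array labelled SD viAP replicate 4, 0 of the 10 passed, while the adjusted p of Myl9 was 0.0618. With each of the 8 arrays left out in turn, Myl9 passed 3 times, Myh11 1 time and Notch3 0 times.

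Whether the diet effect differed between the depots was tested as the change in viAPs minus the change in scAPs. No marker passed, and 0.00459% of all probe sets did, which is 1 of them. The differences were -1.51 for Rgs5 (standard error 0.35) and -0.99 for Notch3 (0.22), both with an adjusted p of 0.331, the smallest among the markers. They were 0.90 for Myl9 (0.23, adjusted p = 0.397) and 1.44 for Des (0.89, adjusted p = 0.758). That of Des turned on the SD viAP arrays. Leaving out the one labelled replicate 4 gave 0.18 (adjusted p = 0.923), and leaving out replicate 3 gave 2.70 (adjusted p = 0.0370). At an unadjusted p under 0.05 the test held 1600 probe sets, among them Rgs5, Notch3, Myl9 and Tagln. A depot-dependent response of the markers was therefore not established at this number of arrays.

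The fat depots were next compared on each diet. On HFD, the contractile genes Myl9 and Myh11 were higher in viAPs than in scAPs and Rgs5 was lower. These are 2 of 10 markers higher and 1 lower, next to 1.07% of all probe sets that were higher and 0.436% that were lower. Rgs5 was at 5.78 and 4.95 in HFD viAPs, against 6.71 and 6.87 in HFD scAPs, a change of -1.42 (standard error 0.24, adjusted p = 0.0330). It was the only marker past both the adjusted p and the 2-fold rule in any comparison, and it lost the call when any 1 array was left out (adjusted p 0.0541 to 0.374). Leaving out HFD viAP replicate 6, which holds the lowest Rgs5 level of the series, changed the value to -1.01.

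Myl9 was at 9.003 and 8.836 in HFD viAPs, against 7.775 and 8.109 in HFD scAPs, a change of 0.98 (adjusted p = 0.0299). Myh11 was at 7.13 and 7.02 in HFD viAPs, against 6.23 on both HFD scAP arrays, a change of 0.85 (adjusted p = 0.0244). Both kept an adjusted p under 0.05 without either SD viAP array, and lost it with each of the 6 other arrays left out and when only the 4 HFD arrays were fitted (adjusted p = 0.115 for Myl9 and 0.0567 for Myh11). Tagln, at 6.86 and 6.66 against 5.91 and 5.86, just missed the threshold (0.88, adjusted p = 0.0535). Acta2 was higher by 0.83 (adjusted p = 0.210) and Notch3 lower by 0.45 (change -0.45, adjusted p = 0.305), neither past the test, and the arrays of both genes did not overlap between depots.

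Des separated the depots by the widest margin on HFD, at 8.61 and 8.22 in viAPs against 5.64 and 5.93 in scAPs. The change of 2.63, or 6.19-fold, did not pass with all 8 arrays (standard error 0.63, adjusted p = 0.0962). It passed with the array labelled SD viAP replicate 4 left out (standard error 0.17, adjusted p = 0.00236) and when only the 4 HFD arrays were fitted (adjusted p = 0.0491), so that the call turned on the spread between the SD viAP arrays.

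On SD, 0 of the 10 markers passed between depots (smallest adjusted p 0.300, for Myh11), as did 0% of all probe sets. Of all probe sets, 2536 had an unadjusted p under 0.05 in this comparison. Myh11 was at 6.69 and 6.48 in SD viAPs, against 6.04 and 6.09 in SD scAPs (change 0.52). Notch3 was at 6.71 and 6.82 in SD viAPs, against 6.13 and 6.32 in SD scAPs (change 0.54). All 10 fitted changes were positive, with a median of 0.25. The median was 0.01 over all probe sets and -0.08 over those above the authors' level. With single arrays left out, the lowest changes of Acta2, Myl9, Des and Rgs5 were -0.056, -0.032, -0.069 and -0.018, so that the direction was not stable. With the array labelled SD viAP replicate 4 left out, the change of Des between depots on SD was 2.45.

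**Figure D3:**
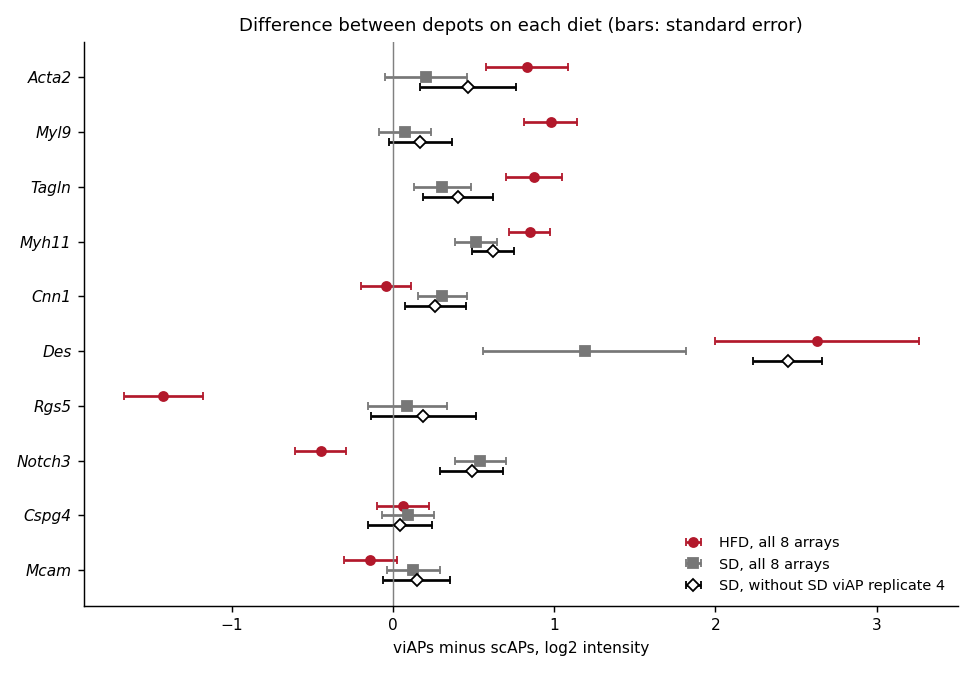
Difference between depots (viAPs minus scAPs, log2 intensity) of each marker on HFD and on SD with all 8 arrays, and on SD with SD viAP replicate 4 left out; bars are standard errors. On SD, the difference of Des was 1.19 with that array and 2.45 without it.

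Further genes of the same cells were read from lists. Of 24 other contractile genes, 5 rose in HFD viAPs, 0 fell and 19 did not pass, with a list median of 0.19. Of all probe sets, 8.45% rose and 1.95% fell here. They were Cald1, which encodes the actin-binding protein caldesmon (1.03, adjusted p = 0.0119), Ppp1r14a, an inhibitor of myosin phosphatase (0.97), Smtn, which encodes smoothelin of contractile smooth muscle (0.89), and the tropomyosins Tpm2 and Tpm1 (0.85 each). Tpm2 was at 7.38 and 6.87 in HFD viAPs, against 6.52 and 6.02 in SD viAPs. In scAPs 0 of the 24 passed, with a median of 0.05. Between depots on HFD, Tpm2 (1.52) and Ppp1r14a (1.39) were higher in viAPs, as were 1.07% of all probe sets. Once the array labelled SD viAP replicate 4 was left out, 0 of the 24 passed by diet in viAPs. Between depots on HFD, 6 were then higher in viAPs (Tpm2, Hspb7, Ppp1r14a, Csrp1, Smtn and Tpm1), as were 1.81% of all probe sets, and on SD Csrp1 was (1.71).

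Actin and myosin genes that most cells share rose as well. Of 17, which were all above the authors' level, 10 rose in HFD viAPs and 0 fell, next to the same 8.45% of all probe sets that rose. Their median was 0.97, against 0.30 over all probe sets above that level. For 17 of 17, both HFD arrays were above both SD arrays, next to 28.9% of all probe sets. The 8.45% and 28.9% are shares over probe sets of every level, so they are not matched to this list. The largest changes were those of the adhesion protein gene Vcl (1.44), the actin crosslinkers Flna (1.26) and Actn1 (1.20), and Tpm4 (1.22). Vcl was at 9.40 and 9.13 in HFD viAPs, against 8.26 and 7.39 in SD viAPs. In scAPs 1 rose (Actn4, 0.85), with a median of 0.35. When the array labelled SD viAP replicate 4 was omitted, 3 of 17 rose in viAPs and the median was 0.61, with 0.909% of all probe sets rising.

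Genes of TGF-beta signalling and SRF targets that act on smooth muscle showed the same direction in viAPs, where 7 of 12 rose and 0 fell (median 0.99), next to 8.45% of all probe sets that rose. Among them were the matrix signalling gene Ccn2 (1.94, adjusted p = 0.00251), the feedback inhibitor Smad7 (1.47), the integrin gene Itga5 (1.35) and the SMAD corepressor Skil (1.30). In scAPs Smad7 rose (1.20, adjusted p = 0.0152) and the other 11 did not pass. With that SD viAP array omitted, 5 of 12 rose in viAPs and 1 of 12 in scAPs, against 0.909% and 0.151% of all probe sets.

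Of 29 further mural genes, 4 rose and 2 fell in HFD viAPs (median -0.05), where 8.45% of all probe sets rose and 1.95% fell. The 2 that fell encode subunits of a potassium channel of pericytes, Abcc9 the regulatory one (-2.09, adjusted p = 0.0288), and Kcnj8 the pore (-1.06, adjusted p = 0.0300). Abcc9 was at 6.13 and 5.83 in HFD viAPs, against 7.17 on SD viAP replicate 3 and 8.97 on the array labelled SD viAP replicate 4. In scAPs Abcc9 was at 8.30 and 8.51 on HFD, against 8.41 and 8.75 on SD, so that the doubtful array lay above all 4 scAP arrays. Without it, the change of Abcc9 in viAPs was -1.19 (adjusted p = 0.0565) and that of Kcnj8 -0.64 (adjusted p = 0.0813). Between depots on HFD, Abcc9 was lower in viAPs by a change of -2.42 (adjusted p = 0.0471, or 0.00277 without that array) and Map3k7cl was higher by 0.86 (adjusted p = 0.0347, or 0.0236 without that array). Of all probe sets, 1.07% were higher and 0.436% lower in this comparison. Gucy1a1 and Gucy1b1 encode subunits of the nitric oxide receptor. They changed by -1.92 and -1.76 between depots on HFD and did not pass (adjusted p = 0.0834 and 0.0559). Kcnj8 (-0.87), Itga7 (-0.89) and Art3 (-0.70) were also lower in HFD viAPs and Mrvi1 was higher (1.13). None of these passed with all 8 arrays. For all of these genes the call turned on the spread between the SD viAP arrays, as it did for Des.

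The 4 mural genes that rose in HFD viAPs were Heyl, a Notch target (1.03), Pdgfrb, the receptor for endothelial PDGF-B (0.77), the gene of the matrix protein vitronectin, Vtn (0.74), and Steap4, a metalloreductase gene (0.67). In scAPs 2 of the 29 rose, Aoc3, an amine oxidase gene of smooth muscle and adipocytes (1.13), and Pdgfrb (0.88). Of all probe sets, 1.06% rose there. Pdgfrb was at 10.67 and 10.58 in HFD viAPs, against 9.85 and 9.86 in SD viAPs. In HFD scAPs it was at 11.043 and 10.660, against 10.003 and 9.934 in SD scAPs. APs also express this receptor. Without the array labelled SD viAP replicate 4, 0 of the 29 passed in viAPs and 0 in scAPs.

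The partners of Notch3 were read as a list of 15 genes. In viAPs 2 rose, Notch2 (0.79) and Heyl (1.03), and 0 fell, next to 8.45% of all probe sets that rose. In scAPs, where Notch3 itself rose, 0 of the 15 passed, with a median of 0.35. Heyl was at 7.37 and 6.81 in HFD scAPs, against 5.64 and 6.15 in SD scAPs, and these groups did not overlap. The calls of Notch2 and Heyl in viAPs turned on the array labelled SD viAP replicate 4, without which the changes were 0.69 and 0.89. Between depots, the fitted change of Lfng, a modifier of Notch receptors, was 0.87 on HFD, and 1.44 on SD without that array.

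**Figure D4:**
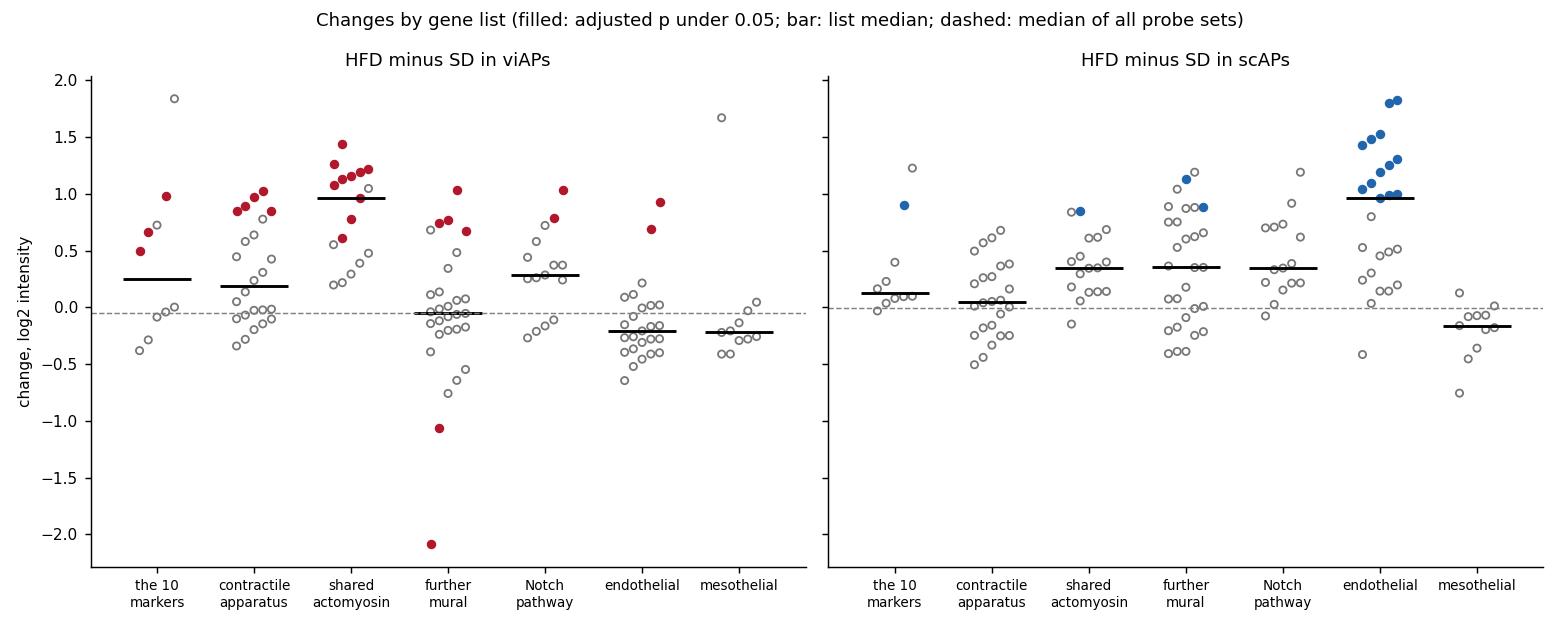
Change with HFD (log2 intensity) of single genes in viAPs (left) and scAPs (right), for the 10 markers and 6 gene lists; filled points have an adjusted p under 0.05, bars are list medians and the dashed line is the median of all probe sets with 1 symbol. The shared actomyosin list had a median of 0.97 in viAPs, and the endothelial list had a median of 0.97 in scAPs.

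Endothelial markers were higher on the HFD scAP arrays, as Notch3 and Rgs5 were. Of 25 such markers, 13 rose in HFD scAPs and 0 fell (median 0.97), where 1.06% of all probe sets rose. For 21 both HFD arrays were above both SD arrays, next to 21.7% of all probe sets. In HFD viAPs 2 rose, Eng (0.93, adjusted p = 0.0115) and Tek (0.69, adjusted p = 0.0256), where 8.45% of all probe sets rose. The summed intensity of the 25 was 5232 and 5037 in HFD scAPs, against 2945 and 2851 in SD scAPs. It was 3346 and 3136 in HFD viAPs, against 2694 and 2730 in SD viAPs. The mean log2 level of the 25 did not rise there. It was 6.23 and 6.08 in HFD viAPs, against 6.24 and 6.33 in SD viAPs. Cdh5, the endothelial cadherin gene, rose in HFD scAPs by 1.83 (adjusted p = 0.0482), Emcn by 1.80, Kdr, a VEGF receptor gene, by 1.52 and Ptprb by 1.48. Pecam1, which encodes the CD31 used for depletion, was at 7.78 and 7.70 in HFD scAPs, against 6.25 and 6.38 in SD scAPs. Between depots on HFD, 14 of the 25 were lower in viAPs and 0 higher, next to 0.436% and 1.07% of all probe sets. The part of endothelial cells in the Notch3 and Rgs5 values was not tested. Without the array labelled SD viAP replicate 4, the list medians were 0.97 in scAPs and -0.13 in viAPs. Fewer of the 25 then passed by diet, as did fewer of all probe sets.

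Mesothelial markers belong to the layer that covers visceral fat. Their summed level was higher on the arrays where Des was high, but not every marker was, and Wt1 weighed most in that sum. Wt1, the visceral marker of the label check, differed most on HFD (2.94). The fitted change of Krt19 was -0.34, and the list median was 0.27. The summed intensity of 11 of them was 954 and 1125 in HFD viAPs, 1132 on SD viAP replicate 3 and 605 on the array labelled SD viAP replicate 4. In scAPs it was 516 and 444 on HFD, against 524 and 586 on SD. The mean log2 level of these 11 was 5.63 and 5.91 in HFD viAPs, against 5.16 to 5.52 over the 4 scAP arrays. On SD viAP replicate 3 it was 6.11, and on the array labelled SD viAP replicate 4 it was 5.53. Of these 11 markers 0 passed between diets in either depot or between depots on either diet with all 8 arrays. With the array labelled SD viAP replicate 4 left out, the change between depots on SD was 2.46 for Wt1 and 1.94 for Upk3b. Wt1 helped to put that array in doubt, so that its own difference on SD follows in part from leaving the array out. The part of mesothelial cells in the level of Des was not tested. The summed intensity of 15 skeletal muscle markers, a source of Des in other tissues, was 916 to 947 in HFD viAPs and 835 to 856 in HFD scAPs, and 0 of the 15 passed between diets. Between depots Actn3, a skeletal muscle actinin gene, was higher in HFD viAPs by 1.49 (adjusted p = 0.0426, or 0.00645 without the array labelled SD viAP replicate 4). Without that array it was also higher in SD viAPs, by 1.33 (adjusted p = 0.0407). Leukocyte markers (10) summed to 378 to 527 and Schwann cell markers (5) to 188 to 250 over all groups. Of the Schwann cell genes Cdh19 rose in HFD scAPs (1.05) and was lower in HFD viAPs than in HFD scAPs (-1.29). Among the AP markers, 1 of 9 rose in HFD viAPs, Itgb1, which encodes the integrin beta 1 chain (1.26), and 0 passed in scAPs, next to 8.45% and 1.06% of all probe sets that rose. Of 7 mature adipocyte markers, Retn (-0.95, adjusted p = 0.0116) and Plin1 (-0.58, adjusted p = 0.0425) fell in HFD viAPs, and neither passed without the array labelled SD viAP replicate 4. Of all probe sets, 1.95% fell in HFD viAPs. The part of these other cell types in the marker values was not tested.

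The genes whose levels most resembled the mean of the 10 markers, each centred on its own mean, were Adap2 and Scg3 (Pearson r = 0.983 each), Arhgap32 (0.982), Nnmt (0.977) and Efnb1 (0.972). These are descriptions over 8 arrays of the genes above the authors' level. The mean profile itself was 0.52 and 0.25 in HFD viAPs, 0.17 and -0.18 in SD viAPs, -0.0028 and -0.059 in HFD scAPs, and -0.37 and -0.33 in SD scAPs.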

How the data were processed

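Gene expression was measured on 8 Affymetrix Mouse Gene 1.0 ST arrays, 2 per group, and groups were taken from the sample labels. The authors deposited linear intensity values, rounded to whole numbers, after quantile normalization and RMA summarization of probe sets. RMA and Affymetrix Expression Console 1.1 are credited in the processing notes of the submitters. The values were converted to log2 and not scaled further. Of 35556 probe sets, 21789 had 1 symbol in the platform annotation, 1621 several and 12146 none, and only those with 1 symbol were tested. By Entrez ID, 21698 of these were found in the reference and 0 symbols changed.

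limma 3.58.1 (R 4.3.3; lmFit, contrasts.fit, eBayes) fitted the 4 group means to the 8 arrays together, with 4 residual degrees of freedom and a prior of 4.58. Benjamini-Hochberg adjustment ran over all 21789 probe sets. Rose, fell and passed refer to an adjusted p under 0.05, and the rule with a 2-fold minimum is given beside it. P-values measure the spread between pools of mice, and the number of arrays limits precision. The fit was tested on simulated data. Where a gene of a list has several probe sets, that with the highest mean was used. The genes named are the 10 markers, up to 4 members past the test with the largest change in each list, and the 5 most similar genes. Tpm1 and genes given for the label check or beside a marker were added after their values were seen. The markers and gene lists were chosen with earlier results of these data known.

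Alternatives were the 4 arrays of a comparison alone, log2 of the intensity plus 16, median centring, a second quantile normalization, the authors' filter, its level part alone, no moderation, an intensity trend, no minimum fold and each array left out. The figures used Python 3.11.15 with matplotlib 3.10.9.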

Additional observations from a re-analysis of the deposited data

How the results depend on the processing

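Of the 10 marker changes that passed, none changed direction under the alternatives, and in settings other than leaving out an array 40 of 63 values stayed past an adjusted p of 0.05. With 1 array left out, 18 of 80 did. The count past both adjusted p and 2-fold was 0 in viAPs, 1 with median centring (Myl9, 1.12), 1 with the authors' filter, which tested 3 markers, and 3 with no minimum fold. In scAPs it was 0, 2 with median centring and 1 with no minimum fold, and over both depots 0, and 3 with no minimum fold. Between depots on HFD it was 1, 0 with 16 added, with the authors' filter, with its level part alone or with no moderation, and 3 with no minimum fold. With each array left out it ranged from 0 to 2 in viAPs, and from 0 to 1 over both depots, in the difference between the depots' changes, and between depots on SD and on HFD. The 2 in viAPs and the 1 in the difference came without SD viAP replicate 3, and the cause was not tested. Every change gained 0.14 in viAPs through median centring and 0.10 in scAPs. The share of all calls that were higher went to 94.6% in viAPs, against 81.3% as deposited, and to 90.8% over both depots, against 70.9%. Directions turned for changes that did not pass. With median centring Notch3 changed by 0.055 and Mcam by 0.10 in viAPs, Cnn1 by 0.067 in scAPs, and Cspg4 by 0.0079 more in viAPs than in scAPs. With a second quantile normalization Mcam changed by 0.034 in viAPs, and Acta2 by -0.015, Myl9 by -0.070 and Cnn1 by 0.079 in scAPs. With each array left out other markers also turned. The changes by diet in viAPs then ran from -0.70 to 0.13 for Rgs5, from -0.28 to 0.10 for Notch3, from -0.16 to 0.16 for Cspg4, from -0.14 to 0.055 for Mcam. The changes by diet in scAPs then ran from -0.088 to 0.25 for Myl9, from -0.14 to 0.33 for Tagln, from -0.23 to 0.17 for Cnn1, from -0.11 to 0.18 for Cspg4. The changes by diet over both depots then ran from -0.061 to 0.10 for Cspg4, from -0.015 to 0.20 for Mcam. The changes in the difference between the depots' changes then ran from -0.20 to 0.13 for Cspg4. The changes between depots on SD then ran from -0.056 to 0.46 for Acta2, from -0.032 to 0.18 for Myl9, from -0.069 to 2.45 for Des, from -0.018 to 0.20 for Rgs5. The changes between depots on HFD then ran from -0.24 to 0.16 for Cnn1, from -0.10 to 0.22 for Cspg4, from -0.36 to 0.076 for Mcam. Each array number occurs only once, so that the labels do not show whether visceral and subcutaneous pools came from the same mice. No paired analysis was therefore made, and the depot comparisons treated the pools as independent. No second probe set carried only the symbol of a marker, so that alternative gave no value. Probe sets whose annotation gives several symbols or none were not read for the markers.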
